A study of Drosophila melanogaster with 7 samples.

Results

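The 8 Hox genes of Drosophila melanogaster (lab, pb, Dfd, Scr, Antp, Ubx, abd-A and Abd-B) were taken by symbol from the 15551 fly genes of the deposited table, and their 35 isoforms from 25609. The rule used symbols and no measured value, although the members were chosen with earlier results of these data known. All 8 genes had a value in each of the 6 libraries. The libraries were made from adult flies, aged only as adult in the labels. OK107-GAL4 drove the nuclear envelope tag unc84-GFP primarily in Kenyon cells, the neurons that make up most of the mushroom body (2 libraries, a and b). Tdc2-GAL4 drove the same tag primarily in octopaminergic neurons (2 libraries, a and b), and R57C10-GAL4 drove it in all mature neurons (1 library, although the labels list 2 samples). For these 3 lines nuclei were pulled from pooled frozen heads, so the starting tissue included eyes and everything else in the head capsule. The reference was whole dissected brain (1 library), which holds all brain cells and was not taken from tagged nuclei. Its genotype is not given in the sources used here. The drivers also mark other cells, as the word primarily says.

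Hox genes encode homeodomain transcription factors that give each body segment its identity. In flies they lie in 2 clusters on chromosome arm 3R, the Antennapedia complex (lab, pb, Dfd, Scr and Antp) and the bithorax complex (Ubx, abd-A and Abd-B), and their order along the chromosome matches the order of the body regions they specify. The anterior genes act in the head, mouthparts and anterior thorax. The bithorax genes act in the posterior thorax and abdomen. In the nervous system they are known to be expressed in the hindmost part of the brain, the gnathal ganglion and the ventral nerve cord. The mushroom body lies in the protocerebrum, in front of their domains, and octopaminergic neurons have cell bodies in the gnathal ganglion as well as elsewhere in the brain.

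Levels are FPKM, that is, fragments counted per kilobase and corrected for library size, so genes can be compared per length. The steps between low values implied a depth of 25.4 M to 65.4 M reads per library, and between 8486 and 9460 genes reached 1 FPKM. The genes that define the OK107 and Tdc2 lines were highest in the line concerned. The eye regulator ey, which Kenyon cells also express, had 248 and 259 FPKM in OK107, against 10.4 and 12.8 in Tdc2, 35.9 in R57C10 and 10.2 in whole brain. Tbh, the last enzyme of octopamine synthesis, had 1668 and 2159 FPKM in Tdc2, against 16.6 and 16.9 in OK107, 37.1 in R57C10 and 38.3 in whole brain. OK107 a, OK107 b and Tdc2 a carry an earlier date tag than Tdc2 b, R57C10 and whole brain in the tables' headers.

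pb, Dfd and Scr were the 3 highest Hox genes in every library. The 3 bithorax genes were the lowest in all libraries but OK107 b, where lab (0.439 FPKM) lay under Ubx (0.451 FPKM). The 5 genes of the Antennapedia complex summed to 5.38 and 5.52 FPKM in OK107, 23.8 and 29.9 in Tdc2, 11.8 in R57C10 and 8.28 in whole brain. The 3 genes of the bithorax complex summed to 0.812 and 0.864 FPKM in OK107, 0.977 and 0.849 in Tdc2, 0.444 in R57C10 and 0.199 in whole brain. Within the Antennapedia complex the inner genes pb, Dfd and Scr reached 1 FPKM in every library, Antp reached it only in the Tdc2 libraries, and lab in none. None of the bithorax genes reached 0.5 FPKM in any library. At their highest, pb and Dfd in Tdc2 b stood at percentiles 72.6 and 71.0 of all genes in that library.

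**Figure D1:**
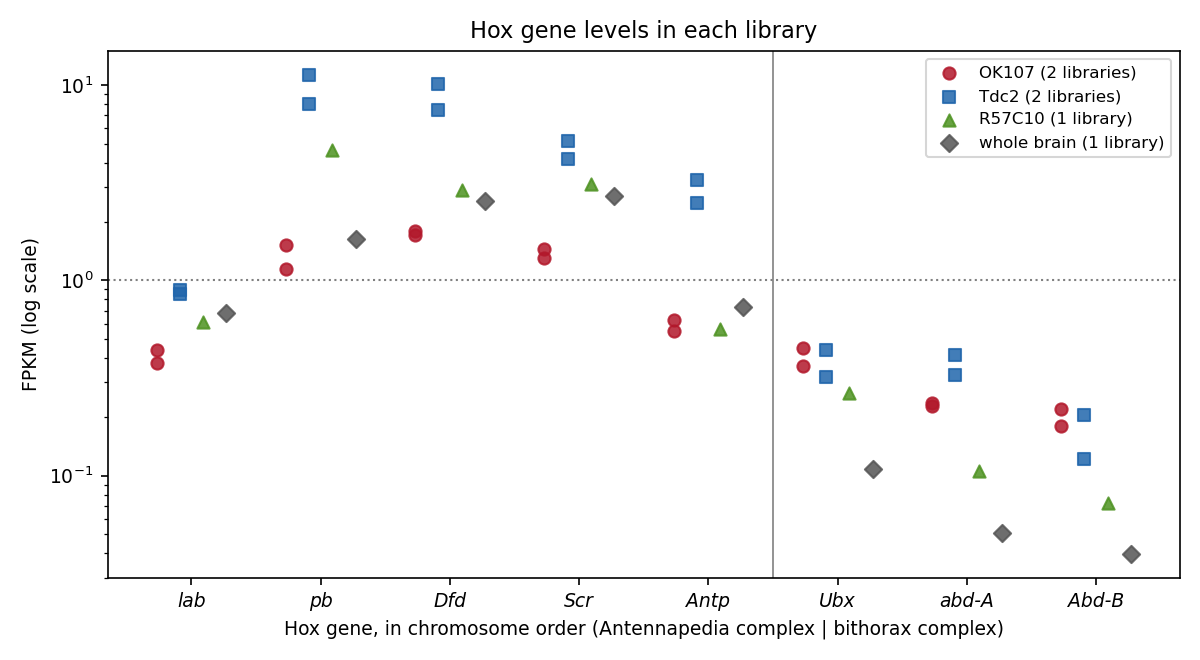
FPKM of each Hox gene (y axis, log scale) in each of the 6 libraries, with genes in chromosome order on the x axis and 1 point per library; the dotted line is 1 FPKM and the vertical line parts the 2 complexes. Tdc2 points lie highest for the 5 genes of the Antennapedia complex, and the 3 bithorax genes lie under 0.5 FPKM in every library.

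pb, which specifies the adult mouthparts (labial and maxillary palps), had the widest range. It measured 1.14 and 1.53 FPKM in OK107, 8.04 and 11.3 in Tdc2, 4.66 in R57C10 and 1.63 in whole brain. OK107 and whole brain were low, R57C10 lay between, and both Tdc2 libraries were above all others. Its highest library was 9.89 times its lowest.

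Dfd, which specifies the mandibular and maxillary segments and acts in feeding motor neurons, measured 1.78 and 1.70 FPKM in OK107, 7.41 and 10.1 in Tdc2, 2.89 in R57C10 and 2.54 in whole brain. Here R57C10 and whole brain were close to each other, and Tdc2 again stood above all other libraries.

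Scr, which acts in the labial and the first thoracic segment and is known for the sex comb and salivary gland, measured 1.45 and 1.31 FPKM in OK107, 4.20 and 5.18 in Tdc2, 3.11 in R57C10 and 2.70 in whole brain. Its highest library was 3.96 times its lowest, the smallest range among pb, Dfd, Scr and Antp.

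Antp, which specifies thoracic identity and turns antennae into legs when misexpressed, measured 0.630 and 0.548 FPKM in OK107, 3.27 and 2.48 in Tdc2, 0.565 in R57C10 and 0.728 in whole brain. It was thus above 1 FPKM in the Tdc2 libraries alone, and the OK107 values overlapped the R57C10 value.

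lab, the most anterior Hox gene, needed in the embryonic tritocerebrum and for copper cells of the midgut, measured 0.379 and 0.439 FPKM in OK107, 0.854 and 0.895 in Tdc2, 0.609 in R57C10 and 0.683 in whole brain. The groups did not overlap, with OK107 lowest and Tdc2 highest.

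Both Tdc2 libraries lay above both OK107 libraries for 6 of the 8 Hox genes, as for 22.3% of the 13457 genes with a value above 0. The exceptions were Ubx and Abd-B, whose groups overlapped. Both Tdc2 libraries lay above R57C10 for all 8 genes, where the share among all genes was 42.3%, and above whole brain for all 8, where it was 41.8%. The Tdc2 libraries themselves differed by 1.05-fold (lab) to 1.67-fold (Abd-B), and the OK107 libraries by 1.03-fold (abd-A) to 1.34-fold (pb).

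Differences were tested with limma on log2(FPKM + 1) over the genes that reached 1 FPKM in 2 or more of the 6 libraries, with Benjamini-Hochberg adjustment over all of them. This scale understates differences of low genes. pb, Dfd, Scr and Antp passed the filter, and lab, Ubx, abd-A and Abd-B did not. Antp passed it through the Tdc2 libraries alone, so that its direction was set in any comparison with Tdc2. Its values in those comparisons are given as a description and counted with no others. The spread of the single R57C10 and whole brain libraries was taken to equal that of the pairs, no label says that samples came from separate flies, and p-values measure only the spread between these libraries. The comparisons share libraries and are not independent of each other.

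In OK107 against Tdc2, pb, Dfd and Scr were lower in OK107. The mean of pb was 1.33 FPKM in OK107 and 9.66 in Tdc2, a log2 fold change of -2.18 (SE 0.2004, limma adjusted p = 0.00229). Dfd differed by -1.82 (SE 0.177, limma adjusted p = 0.00260) and Scr by -1.25 (SE 0.152, limma adjusted p = 0.00419). Antp, whose direction the filter set, had -1.28. The median of all 9630 genes tested was 0.28. Of all these genes 13.9% were called lower in OK107 and 34.1% higher. With samples centred on their medians the split over all genes was 1346 higher and 2111 lower, and pb, Dfd and Scr were still lower in OK107.

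pb, Dfd and Scr passed in OK107 against Tdc2 under each of the 13 alternatives fitted, with limma adjusted p between 0.000371 (Dfd) and 0.0395 (pb). The libraries of the earlier date tag gave the same order, since Tdc2 a lay above OK107 a and b for each of them. With the date tag as a term, which only the Tdc2 pair informs, log2 fold changes were -1.96 for pb, -1.62 for Dfd, -1.13 for Scr and -1.43 for Antp. With a filter of 0.1 FPKM lab was tested too and was lower in OK107, at a log2 fold change of -0.41 (SE 0.104, limma adjusted p = 0.0312).

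In OK107 against R57C10, pb and Scr were lower in OK107, and Dfd and Antp did not pass. The log2 fold change of pb was -1.28 (SE 0.245, limma adjusted p = 0.0238) and that of Scr -0.79 (SE 0.186, limma adjusted p = 0.0382). Dfd had -0.51 (limma adjusted p = 0.145) and Antp 0.02 (limma adjusted p = 0.944), which was -0.43 with median centring. Over all genes 3.57% were called lower in OK107 and 21.2% higher, with a median of 0.30. Median centring moved that median to -0.16 and the split to 791 higher and 1597 lower.

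Both calls of OK107 against R57C10 rest on having both OK107 libraries. Neither passed when OK107 a or OK107 b was left out. The log2 fold change was then -1.16 for pb and -0.83 for Scr without OK107 a, and -1.40 and -0.75 without OK107 b. Over the 13 alternatives, adjusted p lay between 0.00247 and 0.134 for pb and between 0.00601 and 0.241 for Scr. With the date tag as a term, pb had -0.84 (limma adjusted p = 0.0410) and Scr -0.54 (limma adjusted p = 0.0789). Dfd passed as lower without Tdc2 a, without Tdc2 b, and after median centring or quantile normalization. OK107 and R57C10 carry different date tags, so no comparison within a tag can be made for them.

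In Tdc2 against R57C10, Dfd and pb were higher in Tdc2, and Scr did not pass. The log2 fold change was 1.31 for Dfd (SE 0.217, limma adjusted p = 0.0111) and 0.90 for pb (SE 0.245, limma adjusted p = 0.0425). Antp, whose direction the filter set, had 1.301. Scr had 0.46 (limma adjusted p = 0.111). Over all genes 20.6% were called higher in Tdc2 and 15.1% lower, with a median of 0.03, and with median centring the split was 1784 higher and 2281 lower.

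The call of pb in Tdc2 against R57C10 was lost with a pseudocount of 0.1 (limma adjusted p = 0.0551), quantile normalization (limma adjusted p = 0.0565) and no filter (limma adjusted p = 0.181). It was also lost without OK107 a or OK107 b, at an unchanged log2 fold change of 0.90. Its adjusted p lay between 0.00491 and 0.181 over the 13 alternatives. Scr passed without Tdc2 a (limma adjusted p = 0.0226) and in the fit with a date tag term (limma adjusted p = 0.0215), within a range of 0.0215 to 0.296. Within the later date tag, Tdc2 b lay above R57C10 for pb, Dfd, Scr and Antp.

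In R57C10 against whole brain, pb alone of the 4 was higher in R57C10, with 4.66 FPKM against 1.63 in whole brain. Its log2 fold change was 1.11 (SE 0.286, limma adjusted p = 0.0252), with 1 library in each group, so that the SE and p rest on the spread of the OK107 and Tdc2 pairs. Dfd had 0.14 (limma adjusted p = 0.665), Scr 0.15 (limma adjusted p = 0.579) and Antp -0.14 (limma adjusted p = 0.621). Over all genes 22.3% were called higher in R57C10 and 32.8% lower, with a median of -0.22. Median centring turned this split to 3078 higher and 2068 lower. Both libraries carry the later date tag, and no replicate of either is in the tables.

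In OK107 against whole brain, Scr was lower in OK107, with a log2 fold change of -0.64 (SE 0.188, limma adjusted p = 0.0372). Dfd had -0.37 (limma adjusted p = 0.210), pb -0.18 (limma adjusted p = 0.575) and Antp -0.12 (limma adjusted p = 0.631). Over all genes 22.0% were called lower in OK107 and 31.5% higher. The call of Scr was lost without OK107 a (limma adjusted p = 0.162), without OK107 b (limma adjusted p = 0.209) and in the fit with a date tag term (limma adjusted p = 0.121), in a range of 0.00704 to 0.209 over the alternatives. Dfd passed as lower without Tdc2 a (limma adjusted p = 0.0373) or Tdc2 b (limma adjusted p = 0.0372), in a range of 0.0335 to 0.878.

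In Tdc2 against whole brain, pb, Dfd and Scr were higher in Tdc2. The log2 fold change was 2.00 for pb (SE 0.247, limma adjusted p = 0.00413), 1.45 for Dfd (SE 0.218, limma adjusted p = 0.00638) and 0.62 for Scr (SE 0.188, limma adjusted p = 0.0438). Antp, whose direction the filter set, had 1.16. Over all genes 21.2% were called higher in Tdc2 and 29.1% lower, with a median of -0.15. Median centring gave 2742 higher and 1943 lower. Scr did not pass with a filter of 0.1 FPKM (limma adjusted p = 0.0518), quantile normalization (limma adjusted p = 0.0724) or no filter (limma adjusted p = 0.108). Its call was also lost without OK107 a, without OK107 b and with only the 2 groups in the fit, at an unchanged log2 fold change of 0.62. Within the later date tag, Tdc2 b lay above whole brain for each of the 4.

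**Figure D2:**
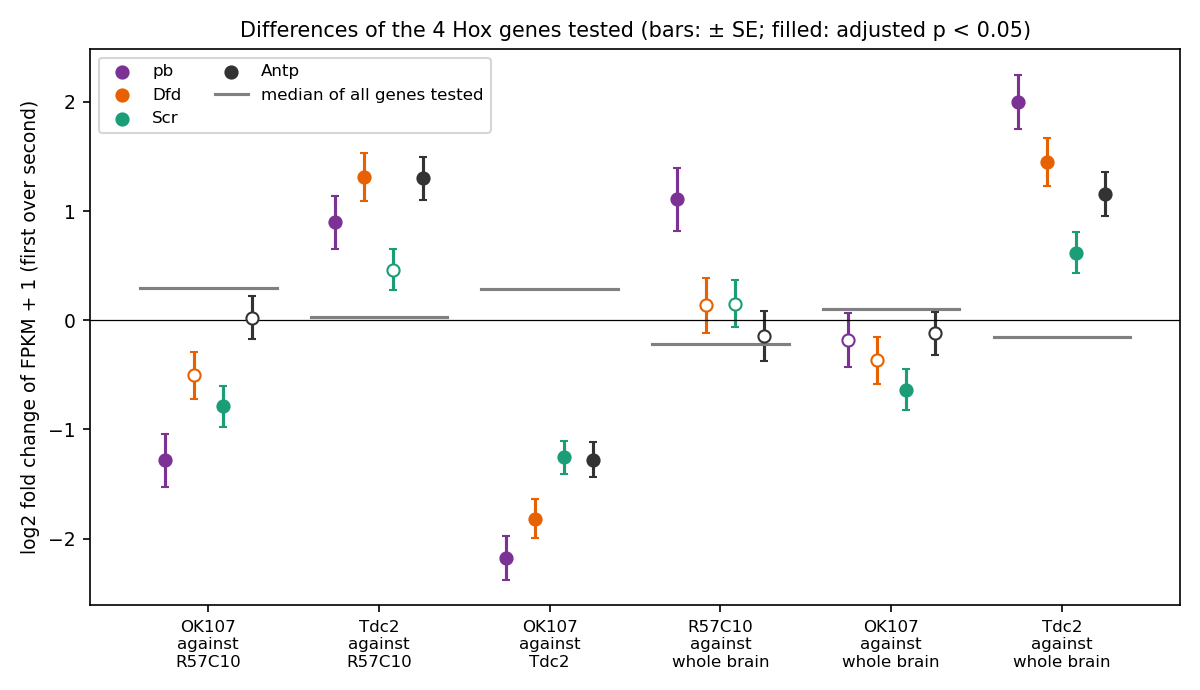
Log2 fold change of FPKM + 1 (y axis) for pb, Dfd, Scr and Antp in the 6 comparisons (x axis, first group over second); bars are ± 1 SE from limma, filled points passed an adjusted p of 0.05, and grey lines are the median of all genes tested. The 4 genes lie between -2.18 and -1.25 in OK107 against Tdc2 and between 0.62 and 2.00 in Tdc2 against whole brain. The direction of Antp was set by the filter in every comparison with Tdc2, so its filled points there are not counted.

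Nuclei of a bulk pull-down do not tell fewer cells that express a gene from less RNA in each cell. Levels of other cell types' markers also moved between the groups. The 6 fat body genes, which include the yolk protein genes Yp1, Yp2 and Yp3, summed to 55.2 and 57.7 FPKM in OK107, 6057 and 5330 in Tdc2, 360 in R57C10 and 3890 in whole brain. The 8 photoreceptor genes summed to 1224 and 1213 FPKM in OK107, 5530 and 4773 in Tdc2, 702 in R57C10 and 439 in whole brain. Of the 8 photoreceptor genes tested, all 8 were lower in OK107 than in Tdc2, against 13.9% of all genes. None of the fat body or photoreceptor genes was at 0 in any library.

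Of the genes tested, 8 of 15 muscle and 3 of 5 glial genes were lower in OK107 than in Tdc2. So were 4 of 5 fat body and 2 of 3 hemocyte genes. None of these lists had a gene called higher, where 13.9% of all genes were lower and 34.1% higher. Lsp2, among the fat body genes tested, and Act88F, among the muscle genes tested, reached 1 FPKM among nuclear libraries in Tdc2 alone. Their direction was thus tied to the filter, and the fat body and muscle counts cannot be read against the shares over all genes. The midgut genes tested were Amy-d and alphaTry. Among nuclear libraries they reached 1 FPKM in Tdc2 alone, so their direction was tied to the filter and is not counted. The 15 muscle genes with a value in every library summed to 172 and 173 FPKM in OK107, 239 and 502 in Tdc2, 94.6 in R57C10 and 137 in whole brain. The 7 midgut genes in the table summed to 0.902 and 0.801 FPKM in OK107, 13.0 and 6.75 in Tdc2, 0.636 in R57C10 and 1.55 in whole brain, with Jon65Ai at 0 in all libraries but Tdc2 a. The 5 glial genes with a value in every library summed to 184 and 191 FPKM in OK107, 396 and 457 in Tdc2, 82.5 in R57C10 and 2970 in whole brain. The 5 hemocyte genes summed to 88.2 and 92.3 FPKM in OK107, 89.2 and 84.3 in Tdc2, 77.3 in R57C10 and 111 in whole brain, and He was at 0 in both OK107 libraries. crq made up most of this sum, while Hml had 2.38 and 2.17 FPKM in OK107, against 6.9965 and 6.23 in Tdc2. The part of these cells in the Hox differences was not tested.

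Markers of reproductive tissue had values too. The 6 male accessory gland genes summed to 10.1 and 9.65 FPKM in OK107, 18.2 and 12.1 in Tdc2, 11.8 in R57C10 and 2.35 in whole brain, and Acp26Aa was at 0 in OK107 and whole brain. Of the 5 tested, 2 were higher and 1 lower in Tdc2 than in R57C10, 1 was lower in OK107 than in Tdc2 and 1 lower in OK107 than in R57C10. Against whole brain 2 were higher in OK107, 3 in Tdc2 and 3 in R57C10, where 31.5%, 21.2% and 22.3% of all genes were. Acp26Aa, among those tested, passed the filter through the Tdc2 libraries alone. The filter thus set its direction in comparisons with Tdc2, and the counts there cannot be read against the shares over all genes. The 7 ovary genes summed to between 0.602 FPKM (R57C10) and 1.90 FPKM (whole brain), with Vm26Aa at 0 in all 5 nuclear libraries. The 5 pan-neuronal genes with values summed to 2165 and 2125 FPKM in OK107, 2404 and 2235 in Tdc2, 2711 in R57C10 and 1858 in whole brain. n-syb was the largest part of each sum. Of these 5 genes, 4 were lower in Tdc2 than in R57C10 and none higher, where 15.1% of all genes were lower. Between OK107 and Tdc2, 3 were higher and 1 lower in OK107, where 34.1% and 13.9% of all genes were. Only 1 was lower in OK107 than in R57C10, where 3.57% of all genes were, and none was higher.

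The bithorax genes specify the posterior thorax and the abdomen, and all 3 rested on few reads. Ubx, which acts in the third thoracic segment and makes the haltere differ from the wing, measured 0.365 and 0.451 FPKM in OK107, 0.442 and 0.318 in Tdc2, 0.265 in R57C10 and 0.108 in whole brain. These values corresponded to about 39 and 41 reads in OK107, 39 and 45 in Tdc2, 36 in R57C10 and 24 in whole brain. OK107 and Tdc2 overlapped, and whole brain was lowest.

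abd-A, which acts in the anterior abdominal segments, measured 0.228 and 0.235 FPKM in OK107, 0.413 and 0.327 in Tdc2, 0.106 in R57C10 and 0.0507 in whole brain. About 15 reads lay behind the whole brain value, whose exact Poisson 95% interval ran from 0.0285 to 0.0840 FPKM, and about 19 behind that of R57C10 (0.0637 to 0.165 FPKM). Tdc2 was highest, with about 47 and 61 reads.

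Abd-B, which acts in the posterior abdomen and genitalia, was the lowest Hox gene. It measured 0.220 and 0.179 FPKM in OK107, 0.122 and 0.204 in Tdc2, 0.0724 in R57C10 and 0.0398 in whole brain. The values rest on about 25 and 17 reads in OK107, 11 and 31 in Tdc2, 11 in R57C10 and 9 in whole brain. The interval in Tdc2 a (0.0593 to 0.213 FPKM) overlapped those of R57C10 (0.0377 to 0.135 FPKM) and of whole brain (0.0173 to 0.0716 FPKM). All such intervals cover counting error only, and the read numbers are estimates from the depth steps.

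Whole brain lay below all 5 nuclear libraries for each of the 3 bithorax genes. So did 40.6% of the 2372 genes with a mean between 0.05 and 0.5 FPKM, a range set with the Hox values known. The median log2 ratio of these genes to whole brain was 1.397 and 1.53 in OK107, 1.07 and 1.53 in Tdc2, and 1.06 in R57C10 (0.01 FPKM added to both). For Ubx the ratio was 1.67 and 1.96 in OK107, 1.94 and 1.47 in Tdc2, and 1.22 in R57C10. For abd-A it was 1.97 and 2.01 in OK107, 2.80 and 2.47 in Tdc2, and 0.94 in R57C10. For Abd-B it was 2.21 and 1.92 in OK107, 1.41 and 2.11 in Tdc2, and 0.73 in R57C10, so that both lay above the median in OK107 and Tdc2 and below it in R57C10. By rank among all genes Ubx stood at percentile 29.5 in whole brain, within its range of 28.9 to 32.7 in the nuclear libraries.

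No bithorax gene passed in any comparison among nuclear libraries with a filter of 0.1 FPKM. In Tdc2 against whole brain abd-A was then higher in Tdc2, with a log2 fold change of 0.38 (limma adjusted p = 0.0393), and it did not pass with no filter (limma adjusted p = 0.0551). The difference between OK107 and Tdc2 was 0.03 for Ubx and 0.04 for Abd-B on the log2(FPKM + 1) scale, at limma adjusted p of 0.830 and 0.692. Depth limits what can be said of these 2 genes.

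**Figure D3:**
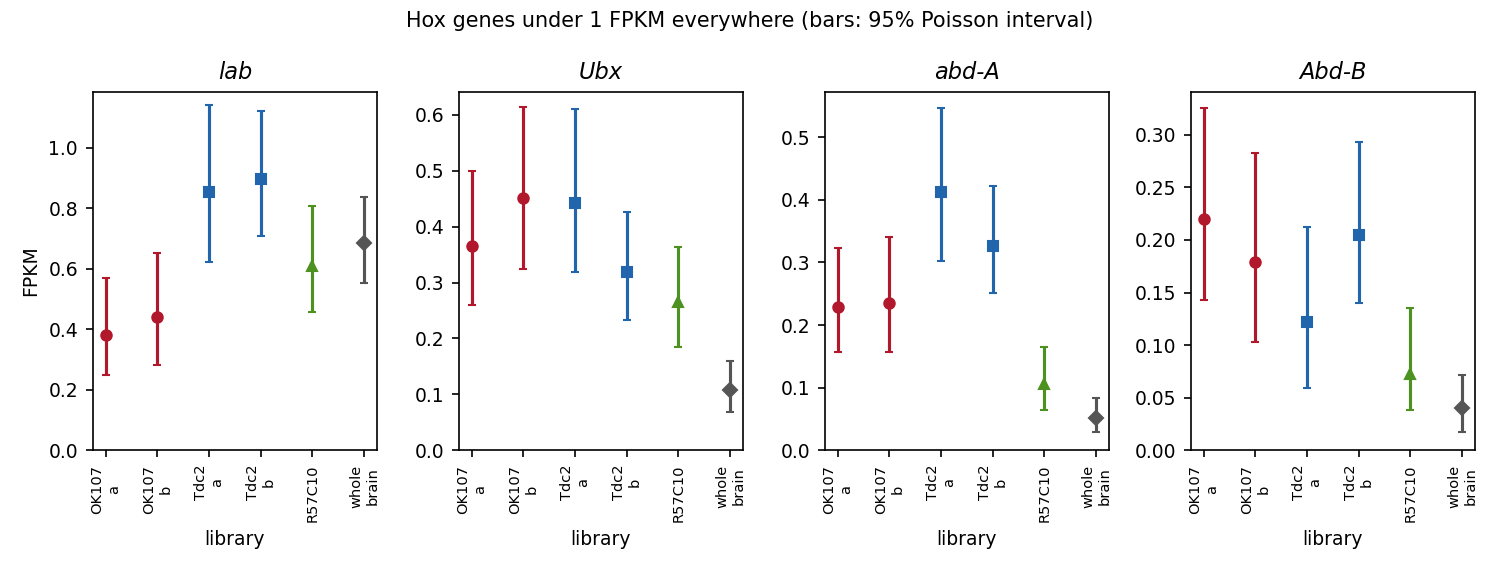
FPKM (y axis) of lab, Ubx, abd-A and Abd-B in each library (x axis), with exact Poisson 95% intervals of the implied read numbers as bars, which cover counting error only. OK107 is lowest for lab, at 0.379 and 0.439 FPKM, and whole brain is lowest for the 3 bithorax genes.

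The isoform table splits each gene's value among its annotated transcripts. Transcript structures are from the Ensembl BDGP6 annotation, a later build than the files' dm3, and all 35 Hox isoforms were found there by name. Dfd has 1 isoform, and Scr has 2 with different starts and the same coding length of 417 codons. Scr-RB was higher than Scr-RA in every library and held 77.2% and 75.1% of the Scr value in OK107, 70.8% and 78.3% in Tdc2, 66.9% in R57C10 and 74.7% in whole brain. In OK107 against Tdc2, Scr-RB was lower in OK107 (log2 fold change -1.13, limma adjusted p = 0.0359), as was Dfd-RA (-1.82, limma adjusted p = 0.0179). Scr-RA had -0.71 (limma adjusted p = 0.0898). These calls depend on the filter. With no filter on low values, limma adjusted p was 0.0867 for Scr-RB, 0.0590 for Dfd-RA and 0.0274 for Scr-RA, and with a pseudocount of 0.1 it was 0.0361, 0.0198 and 0.0939. Over all 14903 isoforms tested 6.80% were called lower in OK107 and 14.6% higher.

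The isoforms assigned to pb differed between the groups, although its 4 isoforms share 1 start. In OK107 a and b nearly all of the value was given to pb-RD, at 1.14 and 1.52 FPKM. In Tdc2 a it was given to pb-RB at 8.04 FPKM, and in Tdc2 b to pb-RB at 6.37 and pb-RA at 4.93 FPKM. R57C10 and whole brain had nearly all of it in pb-RB, at 4.66 and 1.63 FPKM. In limma on isoforms, OK107 against Tdc2 gave pb-RB a log2 fold change of -3.03 (SE 0.195, limma adjusted p = 0.0101). pb-RD passed the filter through the OK107 libraries alone, so that its direction was set, and its log2 fold change of 1.21 is a description.

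These isoforms differ by very little sequence. pb-RB has a single run of 15 bases that pb-RD lacks, and pb-RA has a further run of 15 bases, so that they code for 777, 772 and 782 residues. At the depths implied, 50-base reads over the stretch with such a run numbered about 2.27 and 2.58 in OK107, 13.1 and 29.8 in Tdc2, 11.9 in R57C10 and 6.82 in whole brain. The assignment of whole values to pb-RD in OK107 therefore rests on very few reads, and limma does not see that uncertainty. With a pseudocount of 0.1 pb-RD did not pass in OK107 against Tdc2, although its log2 fold change was then 3.82.

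**Figure D4:**
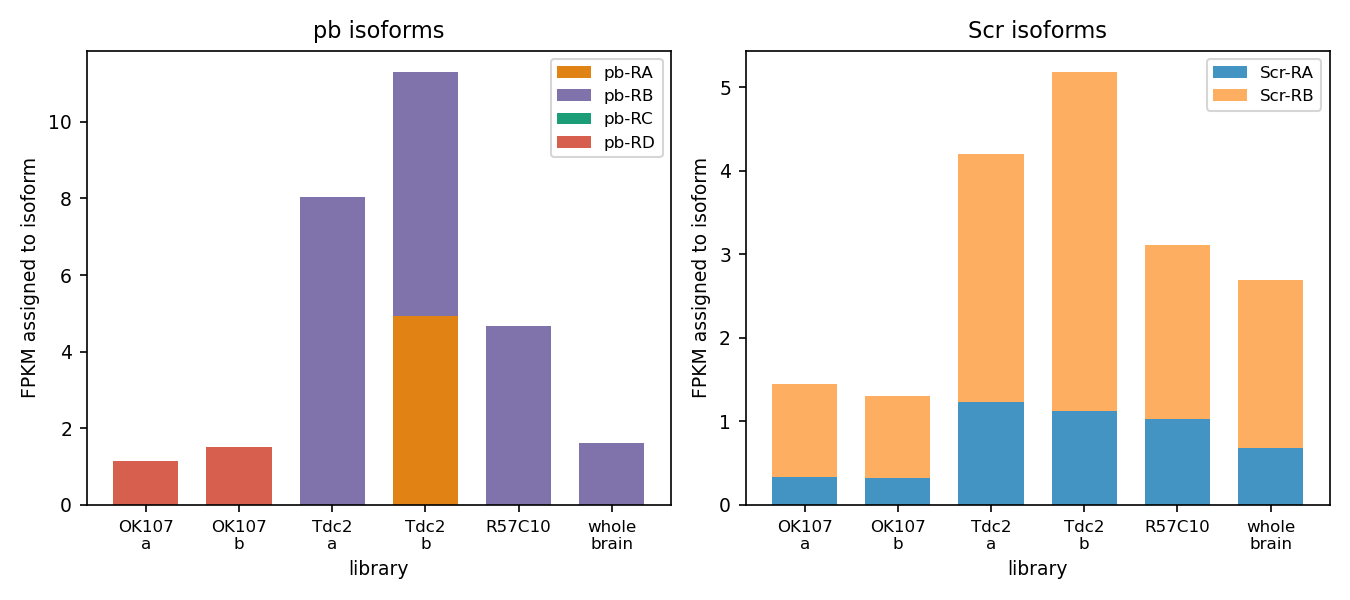
FPKM assigned to each isoform of pb (left) and Scr (right) as stacked bars (y axis from 0) in each of the 6 libraries (x axis). OK107 bars of pb are nearly all pb-RD, the other libraries hold pb-RB, and Tdc2 b also holds pb-RA, while Scr-RB is the larger part of Scr in every library.

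Isoforms of the remaining genes did not pass the filter. With no filter, lab-RA was lower in OK107 than in Tdc2 (log2 fold change -0.38, limma adjusted p = 0.0485). lab was assigned to lab-RA (629 codons) in full in 4 libraries, with 8.95% to the short lab-RB (213 codons) in Tdc2 b and 7.59% in R57C10. Antp has 11 isoforms from 2 starts, 2 of which have no value, and the others summed to only 22.9% to 42.9% of the Antp gene value. Of these Antp-RH, which codes for 297 residues, had a value in every library, at 0.170 and 0.125 FPKM in OK107, 0.612 and 0.389 in Tdc2, 0.164 in R57C10 and 0.0240 in whole brain. The 6 isoforms of Ubx share 1 start and code for 346 to 389 residues. The larger one was Ubx-RF in OK107 a (0.365 FPKM) and R57C10 (0.265 FPKM), and Ubx-RB in OK107 b (0.299 FPKM) and Tdc2 b (0.194 FPKM).

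Abd-B has a long product of 493 codons (Abd-B-RB) and 4 isoforms of 270 codons. Abd-B-RB took 65.4% and 80.0% of the Abd-B value in OK107, 100% in Tdc2 a, 27.4% in Tdc2 b, 72.2% in R57C10 and 85.9% in whole brain. For abd-A the isoforms summed to 100% of the gene value in OK107 a and to 0.0015% in OK107 b. With 9 to 31 reads of Abd-B per library, the 2 Tdc2 libraries disagreed on it, at 0.122 and 0.0561 FPKM.

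The authors' deposited table lists its own Cuffdiff comparisons of pairs of libraries, with a q-value only under 0.05. Its columns name the pair in the other order, and each fold change is given here as the first library written over the second, which is how the deposited values run. In the authors' deposited table, Tdc2 a over OK107 a had pb at a log2 fold change of 2.82 (q = 0.000198) and Antp at 2.37 (q = 3.64e-06). The same comparison in the authors' deposited table had Dfd at 2.06 (q = 0.0138) and Scr at 1.54 (q = 0.0180), with lab at 1.17 and no q. It called 4.71% of all genes with a fold change as higher in Tdc2 a.

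For Tdc2 b over R57C10 the authors' deposited table called Antp alone of the Hox genes, at a log2 fold change of 2.14 (q = 4.23e-05), and 12.2% of all genes as higher in Tdc2 b. Dfd stood at 1.804 and pb at 1.28 in the authors' deposited table, without a q. Whole brain over R57C10 had pb at -1.52 in the authors' deposited table, also without a q. No Hox gene was called there for OK107 b over R57C10, where pb had -1.61 and Scr -1.25.

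The 5 other genes of the Antennapedia complex looked at here were silent or nearly so, with 1 exception. bcd, the maternal anterior determinant of the embryo, lies between pb and Dfd. It measured 6.96 and 8.18 FPKM in OK107, 2.77 and 5.74 in Tdc2, 8.16 in R57C10 and 1.27 in whole brain. It was higher than whole brain in each nuclear group, with log2 fold changes of 1.91 in OK107 (limma adjusted p = 0.00988), 1.15 in Tdc2 (limma adjusted p = 0.0483) and 2.01 in R57C10 (limma adjusted p = 0.0133), and it did not pass between nuclear groups. The bcd pattern was thus unlike that of the neighbouring pb and Dfd, which were highest in Tdc2. zen, zen2, ftz and Ama did not exceed 0.352 FPKM in any library, and zen had a value above 0 in Tdc2 b alone.

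The bithorax noncoding genes looked at here gave no value above 0. bxd, iab-4, msa and the gene mir-iab-8 were listed at 0 in all libraries, and Glut3 (a sugar transporter gene within the complex) at no more than 0.0482 FPKM. mir-10, a microRNA gene of the Antennapedia complex, was listed at 0 as well, and mature microRNAs were not measured. Exons of Antp, whose isoforms are 3279 to 4902 bases long, overlap the later annotated gene CG46458 by up to 2286 bases. Exons of Ubx overlap asRNA:PS4 by up to 51 bases. Neither is in the deposited table, and strand use in counting is not stated.

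Genes that work with Hox proteins were present throughout. hth, whose product carries the cofactor Exd into the nucleus, measured 173 and 187 FPKM in OK107, 211 and 210 in Tdc2, 175 in R57C10 and 116 in whole brain. exd, the homeodomain cofactor itself, measured 49.6 and 46.3 FPKM in OK107, 36.9 and 31.0 in Tdc2, 36.7 in R57C10 and 99.6 in whole brain. hth was higher and exd lower in each nuclear group than in whole brain. For OK107 the log2 fold changes against whole brain were 0.63 for hth (limma adjusted p = 0.00887) and -1.04 for exd (limma adjusted p = 0.00410), and for Tdc2 they were 0.85 (limma adjusted p = 0.00497) and -1.53 (limma adjusted p = 0.00249).

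Of the 6 cofactor and partner genes, 3 were lower and 1 higher in OK107 than in Tdc2, against 13.9% and 34.1% of all genes. The lower ones were disco (-0.74, limma adjusted p = 0.0133), tio (-0.59, limma adjusted p = 0.0153) and tsh (-0.50, limma adjusted p = 0.0362), zinc finger genes that act beside Hox genes in head or trunk patterning. exd was higher (0.49, limma adjusted p = 0.0268). Their median was -0.36, against 0.28 for all genes. In Tdc2 against R57C10 tsh (0.91, limma adjusted p = 0.0151) and disco (0.90, limma adjusted p = 0.0159) were higher in Tdc2.

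Polycomb group genes keep Hox genes silent outside their domains, and trithorax group genes keep them active. In OK107 against Tdc2, 8 of the 22 Polycomb group genes were higher in OK107 and 3 lower, with a median of 0.39, where 34.1% of all genes were higher and 13.9% lower. These counts are close to the shares over all genes. The smallest p belonged to Su(z)2 (-1.07, limma adjusted p = 0.00275), a component of the PRC1 family, followed by sxc (0.83, limma adjusted p = 0.00484), escl (0.81, limma adjusted p = 0.00811) and Su(z)12 (0.56, limma adjusted p = 0.0112). Su(z)2 measured 44.4 and 43.0 FPKM in OK107, against 99.4 and 87.0 in Tdc2. Of the 16 trithorax group genes tested, 10 were higher in OK107 and none lower, with a median of 0.43 against 0.28 for all genes and the same shares of calls over all genes. Those with the smallest p were vtd (0.80), Trl (0.72), mor (0.76) and Snr1 (0.85), at limma adjusted p between 0.00446 and 0.00649.

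Against R57C10, 2 Polycomb group genes were higher in OK107 and none lower, and 2 were higher and 4 lower in Tdc2. Of the trithorax group genes 4 were higher in OK107 than in R57C10 and none lower, and 1 was higher and 6 lower in Tdc2 than in R57C10. Over all genes 21.2% were higher and 3.57% lower in OK107 than in R57C10, and 20.6% higher and 15.1% lower in Tdc2. In R57C10 against whole brain, with 1 library each, 7 Polycomb group genes were higher and 6 lower, where 22.3% of all genes were higher and 32.8% lower. The smallest p belonged to jing (1.66), Caf1 (-1.87), esc (3.74) and pho (-0.83). esc, a subunit of the PRC2 methyltransferase complex, measured 78.3 FPKM in R57C10 and 4.96 in whole brain. Of the trithorax group genes 7 were higher and 3 lower in the same comparison.

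Of 8 genes known as Hox targets in embryos and imaginal discs, 7 were in the table and 6 were tested. In OK107 against Tdc2, dpp (0.48, limma adjusted p = 0.0438) was higher in OK107. salm (-1.96, limma adjusted p = 0.00129) and fkh (-0.95, limma adjusted p = 0.0145) were lower. wg passed the filter through the OK107 libraries alone, so that its direction was set, and its log2 fold change of 2.85 is a description. wg, which encodes a Wnt ligand, measured 10.9 and 10.2 FPKM in OK107, 0.475 and 0.739 in Tdc2, 0.144 in R57C10 and 0.114 in whole brain. salm, a zinc finger gene, measured 1.61 and 1.45 FPKM in OK107, 9.41 and 8.29 in Tdc2, 4.04 in R57C10 and 3.56 in whole brain. As for pb, Dfd and Scr, both Tdc2 libraries were highest and both OK107 libraries lowest. Whether Hox proteins act on these genes in adult neurons was not measured.

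Homeobox and head gap genes of the anterior brain, in front of the Hox domains, were called in both directions. Of the 8 tested, 2 were higher and 4 lower in OK107 than in Tdc2, with a median of -0.34, where 34.1% of all genes were higher and 13.9% lower. In Tdc2 against R57C10, 1 was higher and 5 lower, with a median of -1.33, where 20.6% of all genes were higher and 15.1% lower. toy, a Pax6 gene like ey, had 296 and 306 FPKM in OK107, 63.7 and 64.3 in Tdc2, 159 in R57C10 and 90.8 in whole brain. scro, an NK2-type homeobox gene, had 22.3 and 22.6 FPKM in OK107, 47.0 and 47.0 in Tdc2, 145 in R57C10 and 299 in whole brain. oc (otd), needed for the anterior head, had 7.48 and 8.04 FPKM in OK107, 13.9 and 14.5 in Tdc2, 6.65 in R57C10 and 13.0 in whole brain.

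The Hox genes of the Antennapedia complex varied together over the 6 libraries. Pearson's r of log2(FPKM + 1) lay between 0.80 (Scr and Antp) and 0.97 (lab and Scr) for their 10 pairs. This describes 6 points of 4 groups that share libraries, with the Tdc2 pair at the high end. With the Antennapedia complex genes, r lay between -0.17 and 0.31 for Ubx, between -0.27 and 0.17 for Abd-B, and between 0.34 and 0.79 for abd-A, so that Antp and abd-A were as alike as Scr and Antp.

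Among 5560 other genes with a mean of at least 1 FPKM and libraries that differed at least 2-fold in FPKM + 1, the most like pb were CG42651 (r = 0.99), CG3597 (r = 0.98) and the sugar transporter gene sut4 (r = 0.98). For Dfd they were the copper transporter genes Ctr1A (r = 0.996) and ATP7 (r = 0.99), and CG11842 (r = 0.99). Ctr1A measured 46.1 and 46.5 FPKM in OK107, 153 and 230 in Tdc2, 60.3 in R57C10 and 57.1 in whole brain. For Scr they were CG15376, the immunoglobulin-domain gene dpr13 and CG43284, each at r = 0.98. For Antp they were CG10026 (r = 0.996), the cytochrome P450 gene Cyp4g1 (r = 0.995) and the ornithine decarboxylase gene Odc1 (r = 0.99). Cyp4g1 is a gene of oenocytes and fat body, and measured 3.50 and 3.61 FPKM in OK107, 97.7 and 60.0 in Tdc2, 2.30 in R57C10 and 5.56 in whole brain. These likenesses are over 6 libraries and describe the pattern alone.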

How the data were processed

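RNA was made into cDNA with a NuGEN Ovation RNA-seq v2 kit and sequenced with Illumina chemistry (reads of 50 bases), according to the labels. The submitters' processing notes name CASAVA 1.8, TopHat 1.4.0, Cuffdiff 1.3.0, bedtools 2.15 and build dm3. FPKM per gene and isoform, and q-values and log2 fold changes of library pairs, were deposited by the authors, per the file headers. In each table, repeated FPKM columns (4) were not used, and 92 spike-in rows were left out. The 6 libraries carry group names but no replicate numbers. The tests used limma 3.58.1 (eBayes with trend and robust, R 4.3.3) on 5 nuclear libraries, or all 6 with whole brain, with 2 residual degrees of freedom. The fit was tested on simulated data. Depth was read from steps between low FPKM of genes with 1 isoform, as the value that fitted these steps best. Of those low values 59.5% to 65.5% then lay within 0.2 of a whole read. Many values would lie there at any depth, so this share does not test the depth, and read numbers are approximate. Members, lists and tests were chosen with earlier results of these data known. Named are all Hox genes, members of lists of up to 8 genes, the 4 smallest p of longer lists, and the 3 genes most like each of pb, Dfd, Scr and Antp. Alternatives were other filters, pseudocounts (0.1 and 5), scalings, fits and left-out libraries.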

Additional observations from a re-analysis of the deposited data

How the results depend on the processing

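The count of Hox genes passing leaves Antp out of comparisons with Tdc2 under the filter of 1 FPKM, which set its direction. In OK107 against Tdc2 the count took in pb, Dfd and Scr in all alternatives. Under the filter of 0.1 FPKM and no filter, which test all 8 genes, the count also took in lab and Antp. In OK107 against R57C10 it was 2, with 1 under a pseudocount of 5 or the date tag as a term and 0 without a filter, and leaving out a library gave 0 to 3. In OK107 against whole brain it was 1, with 0 under a pseudocount of 5, no filter or the date tag, 2 under quantile normalization or with only the 2 groups in the fit, and 0 to 2 when a library was left out. Tdc2 against whole brain gave 2 with quantile normalization, and Tdc2 against whole brain, Tdc2 against R57C10 and R57C10 against whole brain gave 0 without a filter. At an unadjusted limma p under 0.05, the counts without a filter were 3 in OK107 against R57C10, 4 in Tdc2 against R57C10, 0 in R57C10 against whole brain, 4 in OK107 against whole brain and 6 in Tdc2 against whole brain. For the other counts of 0, those unadjusted counts were 2 without OK107 a and 1 without OK107 b in OK107 against R57C10. In OK107 against whole brain they were 1 with a pseudocount of 5, and 0 with the date tag, without OK107 a or without OK107 b. Without a filter, genes listed at 0 throughout enter the fit.

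Signs turned only among values that did not pass. Antp in OK107 against R57C10 became -0.43 with median centring, -0.42 with quantile normalization and -0.27 with the date tag, and lay between -0.0155 and 0.0591 when a library was left out. Antp in R57C10 against whole brain became 0.19 with median centring, and in OK107 against whole brain pb became 0.27 and Dfd 0.0324 with the date tag. Passing isoforms fell to 0 without a filter in OK107 against R57C10, Tdc2 against R57C10, R57C10 against whole brain and Tdc2 against whole brain, and to 1 in OK107 against whole brain. In OK107 against Tdc2 they were 3 without a filter (pb-RB, Scr-RA and lab-RA), against 4 with it. Those 4 include pb-RD, whose direction the filter set. With a pseudocount of 0.1 they were 0 in R57C10 against whole brain and 1 in OK107 against whole brain. The cause of these changes was not tested. Leaving out a library of the fit can leave a group with 1 library, which is then assumed to vary like the other pair. With only its 2 groups R57C10 against whole brain could not be fitted. No paired analysis was possible because the columns carry no replicate numbers.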
